A study of Mus musculus with 6 samples.

Results

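Cfp1, encoded by Cxxc1, and the subunits that it joins in the Setd1 histone methyltransferase complexes were followed in hearts from which Cfp1 had been deleted in cardiomyocytes. The 9 genes were listed by name as components of these complexes, and the rule that picks them uses no measured value. They are Cxxc1, Setd1a, Setd1b, Wdr82, Wdr5, Rbbp5, Ash2l, Dpy30 and Hcfc1, and all 9 were found among the 26881 genes of the expression table.

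RNA-seq was performed on whole hearts of 2-week-old mice, with 3 libraries from Cfp1-cKO mice and 3 from WT mice. Cfp1-cKO mice carried floxed Cfp1 alleles and Myh6-Cre, whose promoter is active in cardiomyocytes. Their genotype is labelled CXXC1 null, while fibroblasts, endothelial cells and other cells of the heart keep an intact gene. The alleles of the WT mice, the deleted exons, the sex of the mice and the number of hearts behind each library are not given in the sources used here, so the p-values measure the spread between these libraries, which may be partly technical.

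Trimethylation of lysine 4 on histone H3 (H3K4me3) marks the promoters of active genes. In the Setd1 complexes it is written by Setd1a or Setd1b, the alternative catalytic subunits. The core of these complexes, Wdr5, Rbbp5, Ash2l and Dpy30, also serves the Mll family of methyltransferases. Cfp1 and Wdr82 belong to the Setd1 complexes and not to those of the Mll family, and Cfp1 holds a CXXC zinc finger that binds unmethylated CG dinucleotides, by which the complex is brought to CG-rich promoters.

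CG dinucleotides are therefore shown for the promoters of a pair of the subunits, one rich and one poorer in CG, from RefSeq on build GRCm38.p6. Each run holds the 250 bases before the start of transcription on the plus strand, written 5′ to 3′, with each CG in capitals. The Wdr82 run lies at chr9:106170679-106170928 and holds 24 CG, and the Rbbp5 run lies at chr1:132477117-132477366 and holds 10.
Wdr82: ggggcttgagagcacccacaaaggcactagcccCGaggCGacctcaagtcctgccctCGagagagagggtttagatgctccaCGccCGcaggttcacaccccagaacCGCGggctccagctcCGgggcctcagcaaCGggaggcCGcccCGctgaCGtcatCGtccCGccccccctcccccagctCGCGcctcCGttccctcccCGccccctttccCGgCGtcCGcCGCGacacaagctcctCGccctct
Rbbp5: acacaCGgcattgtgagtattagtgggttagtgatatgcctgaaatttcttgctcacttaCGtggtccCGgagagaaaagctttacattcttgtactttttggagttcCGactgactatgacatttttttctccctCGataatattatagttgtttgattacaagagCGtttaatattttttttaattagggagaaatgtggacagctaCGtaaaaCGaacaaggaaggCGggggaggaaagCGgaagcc
The letters searched were CG, which read the same on both strands. In the same window, Setd1a held 25 CG, Hcfc1 held 19 and Wdr5 held 12, and the 4 annotated starts of Dpy30 held between 1 and 34. The Setd1a window (chr7:127777139-127777388) lay inside the gene span given below, as did the Dpy30 windows except that with 1 CG. The RefSeq table matched 6 of the 9 genes and not Cxxc1, Setd1b or Ash2l. Over all 32851 promoters the median was 6 CG, and 92.1% held at least 1.

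The scale of the libraries bears on every value that follows. In FPKM (fragments scaled to exon length and library total) as deposited, the 11017 tested genes had a median log2 fold change of 0.35. Median-of-ratios scaling, in which each library is divided by its median ratio to a common reference, brought it to 0.0043. A gene was called at an adjusted p below 0.05 with a log2 fold change beyond 0.5 in either direction. Fitted log2 fold changes are those of log2(FPKM + 1), so for low genes they are smaller than the ratio of the means implies. For Ash2l and Setd1b as deposited, the log2 ratios of the means were 0.91 and 0.78, beside fitted values of 0.72 and 0.50. Mitochondrially encoded transcripts took 36.6% to 38.9% of the recovered fragments in WT and 29.4% to 34.7% in Cfp1-cKO libraries. Each subunit is therefore given on both scales. Cxxc1 is also given as a ratio to the others within a library, and Setd1a as a ratio to Setd1b. No scaling between libraries can change such a ratio.

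The libraries also differed in markers of other cells. All 12 lung epithelium markers were called higher in Cfp1-cKO, with a summed level of 0.788 to 3.09 FPKM in WT and 3342 to 5061 FPKM in Cfp1-cKO, and among them Lamp3 was at 0 in every WT library. All 4 tested of 8 immune markers were called higher (42.4 to 60.3 against 482 to 933 FPKM). Of 4 endothelial markers, 1 was called higher as deposited (88.8 to 120 against 123 to 180 FPKM), beside 21.1% of all tested genes. No endothelial marker was called after scaling. None of the 5 tested of 8 markers of dividing cells (1.16 to 4.14 against 4.02 to 47.3 FPKM) or of 4 fibroblast markers (211 to 243 against 290 to 426 FPKM) was called. The sum of 47.3 FPKM for dividing cells was that of Cfp1-cKO replicate 2, beside 5.98 and 4.02 FPKM in replicates 1 and 3. Of 10 cardiomyocyte markers, 6 were called lower and none higher (13159 to 20994 against 9649 to 13548 FPKM). The lung, immune and cardiomyocyte counts were the same after scaling. All 3 Cfp1-cKO libraries carried the lung and immune markers, so their part in any difference between the genotypes cannot be told apart from that of the genotype. In these bulk libraries, fewer cells of a type and less RNA per cell cannot be told apart either.

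Cxxc1, the targeted gene (ENSMUSG00000024560, chr18:74216131-74221491 on GRCm38, plus strand), was still read in every Cfp1-cKO library. Its level was 9.66, 12.9 and 10.0 FPKM in WT replicates 1 to 3 and 8.02, 9.94 and 8.74 FPKM in Cfp1-cKO replicates 1 to 3, which came from 473 to 637 and from 409 to 434 fragments. As deposited, the groups overlapped, because the highest Cfp1-cKO library lay above the lowest WT library. The WT mean was 10.9 ± 1.78 FPKM and the Cfp1-cKO mean 8.90 ± 0.972 FPKM (SD, n = 3 each), a difference that did not pass the test (log2 fold change -0.26 ± 0.16 SE, adjusted p = 0.249, limma with Benjamini-Hochberg adjustment).

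After scaling, the same libraries read 11.3, 15.7 and 11.0 in WT and 7.51, 8.12 and 7.08 in Cfp1-cKO. Every Cfp1-cKO library then lay below every WT library, and the ratio of the means was 0.597. The log2 fold change was -0.66 ± 0.17 SE (95% interval -1.05 to -0.27) with an adjusted p of 0.0571 by limma with Benjamini-Hochberg adjustment, just outside the threshold of 0.05. With the scaling reference taken over all 16294 genes above 0 in every library in place of the 10879 tested ones, it was -0.75 with an adjusted p of 0.0485 by the same limma test and passed. This call was lost when any library other than WT replicate 3 was left out, with adjusted p-values of 0.0505 to 0.144. On either scale Cxxc1 stood low among the tested genes, at percentile 7.01 of the fold changes as deposited and 6.58 after scaling.

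**Figure D1:**
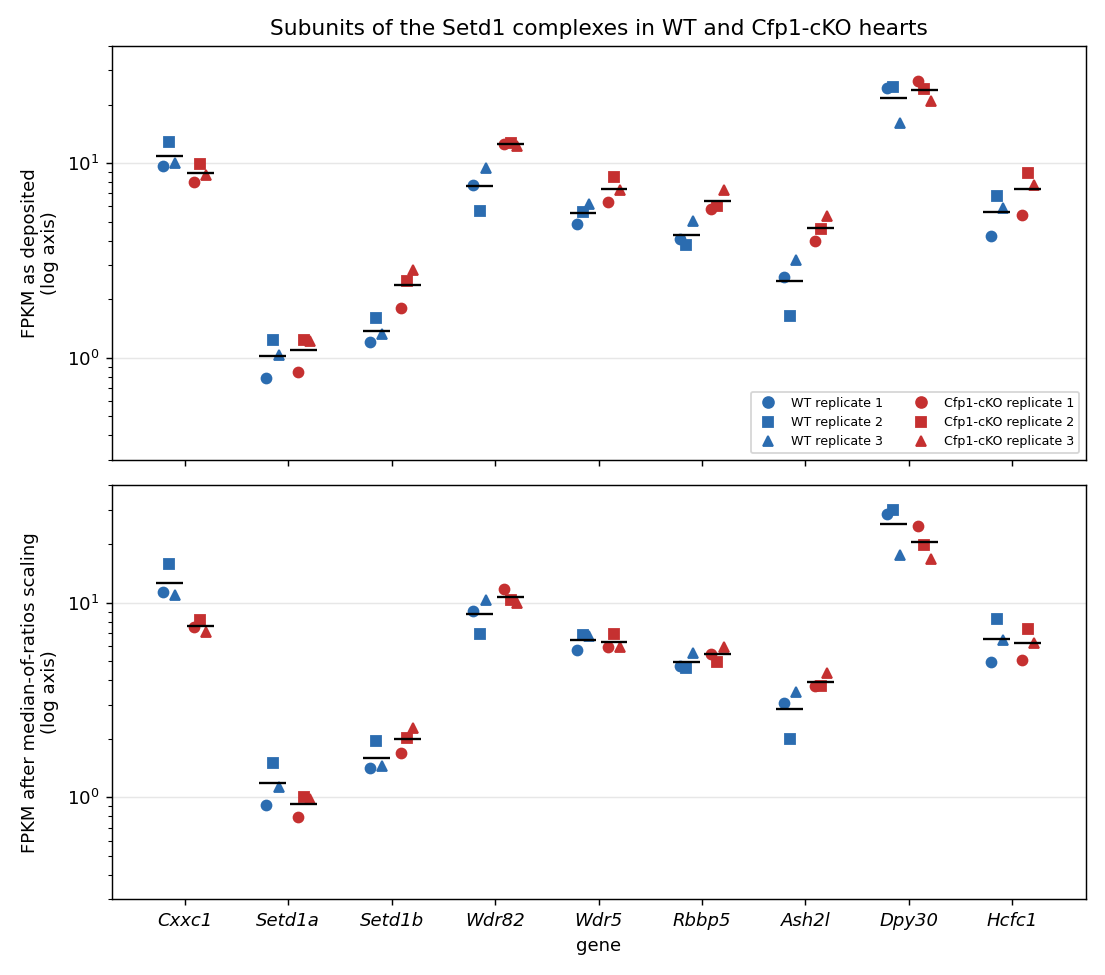
Level of each subunit gene in each library on a log axis, as deposited (top) and after median-of-ratios scaling (bottom), with WT in blue, Cfp1-cKO in red, replicates 1 to 3 as circle, square and triangle, and bars at the means. Cfp1-cKO libraries of Cxxc1 overlap those of WT at the top and lie wholly below them at the bottom, while Setd1b, Wdr82, Wdr5, Rbbp5 and Ash2l are separated upward at the top and only Ash2l among them at the bottom.

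Setd1a and Setd1b, the catalytic subunits, had the lowest levels of the 9 genes in all 6 libraries. Setd1a (ENSMUSG00000042308, chr7:127776670-127800122, plus strand) was at 0.784, 1.23 and 1.04 FPKM in WT and 0.846, 1.24 and 1.22 FPKM in Cfp1-cKO. These levels overlapped fully, and the log2 fold change was 0.057 ± 0.17 SE as deposited (adjusted p = 0.812, limma, Benjamini-Hochberg) and -0.17 after scaling, so that no direction can be given. Setd1b (ENSMUSG00000038384, chr5:123142193-123168629, plus strand) was at 1.20, 1.60 and 1.33 FPKM in WT and 1.80, 2.49 and 2.82 FPKM in Cfp1-cKO. All 3 Cfp1-cKO libraries lay above all WT libraries, with a ratio of the means of 1.72, but the log2 fold change of 0.50 ± 0.18 SE missed the threshold (adjusted p = 0.0694, limma, Benjamini-Hochberg). It passed without Cfp1-cKO replicate 1 (0.62, adjusted p = 0.0492, limma), and after scaling it was 0.21 with overlapping groups.

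The balance between the transcripts of the 2 enzymes was separated between the genotypes on any scale. The ratio of Setd1a to Setd1b was 0.653, 0.771 and 0.783 in WT and 0.470, 0.497 and 0.432 in Cfp1-cKO. Every Cfp1-cKO ratio was thus below every WT ratio, as was true, in the direction of the other gene being higher, for 26.5% of all tested genes set against Setd1a. The ratios within a library were taken as descriptions and not tested.

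Wdr82 (ENSMUSG00000020257, chr9:106170928-106191139, plus strand) is the WD-repeat subunit that tethers Setd1 enzymes to initiating RNA polymerase II. Among Cfp1-cKO libraries as deposited it had the smallest coefficient of variation of the 9 genes, at 1.36%, which did not hold after scaling. That is less than the 2.55% to 2.73% expected from fragment counts alone in these libraries, so it is not read as a trait of Wdr82. It was at 7.76, 5.67 and 9.43 FPKM in WT and 12.5, 12.7 and 12.3 FPKM in Cfp1-cKO. The Cfp1-cKO libraries lay close together and above all WT libraries, with WT replicate 2 the lowest of all. Its mean rose 1.64-fold, from 7.62 ± 1.88 to 12.5 ± 0.169 FPKM (SD, n = 3 each), with a log2 fold change of 0.67 ± 0.18 SE and an adjusted p of 0.0357 (limma, Benjamini-Hochberg). The call was kept without WT replicate 3 and lost when any other library was left out, with adjusted p-values of up to 0.116. After scaling the groups overlapped, at 9.10, 6.91 and 10.3 in WT and 11.7, 10.3 and 9.98 in Cfp1-cKO, and the log2 fold change of 0.27 did not pass (adjusted p = 0.360, limma, Benjamini-Hochberg).

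Of the core subunits shared with the Mll complexes, Ash2l was the one called. Ash2l (ENSMUSG00000031575, chr8:25815996-25847694, minus strand), which with Rbbp5 stimulates the catalytic subunit, was at 2.61, 1.64 and 3.17 FPKM in WT and 3.98, 4.59 and 5.35 FPKM in Cfp1-cKO. No library of one genotype overlapped the other, and WT replicate 2 was again the lowest. The mean rose 1.87-fold, from 2.48 ± 0.772 to 4.64 ± 0.684 FPKM (SD, n = 3 each), with a log2 fold change of 0.72 ± 0.20 SE and an adjusted p of 0.0383 (limma, Benjamini-Hochberg). As for Wdr82, the call was kept without WT replicate 3 and lost without any other library. Scaled levels were 3.06, 2.00 and 3.48 in WT and 3.73, 3.74 and 4.33 in Cfp1-cKO, which still did not overlap, but the log2 fold change of 0.38 ± 0.17 SE did not pass (adjusted p = 0.225, limma, Benjamini-Hochberg).

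Rbbp5 and Wdr5, the WD-repeat scaffolds of the core, showed the same separation as deposited without a call. Rbbp5 (ENSMUSG00000026439, chr1:132477365-132505659, plus strand) was at 4.06, 3.79 and 5.04 FPKM in WT and 5.79, 6.06 and 7.32 FPKM in Cfp1-cKO, with a log2 fold change of 0.48 ± 0.16 SE (adjusted p = 0.0603, limma, Benjamini-Hochberg). Wdr5 (ENSMUSG00000026917, chr2:27515157-27536535, plus strand) was at 4.86, 5.62 and 6.16 FPKM in WT and 6.34, 8.46 and 7.29 FPKM in Cfp1-cKO, with a log2 fold change of 0.35 ± 0.16 SE (adjusted p = 0.129, limma, Benjamini-Hochberg). For both genes every Cfp1-cKO library was above every WT library, and after scaling both overlapped, at log2 fold changes of 0.11 for Rbbp5 and -0.036 for Wdr5. Without WT replicate 3, Rbbp5 passed as deposited (0.58, adjusted p = 0.0488, limma).

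Dpy30 and Hcfc1 overlapped between the genotypes on both scales. Dpy30 (ENSMUSG00000024067, chr17:74299474-74323944, minus strand), the small dimeric subunit bound through Ash2l, was at 24.3, 24.6 and 16.0 FPKM in WT and 26.5, 24.1 and 20.8 FPKM in Cfp1-cKO. Replicate 3 was the lowest library in each genotype. The log2 fold change was 0.15 ± 0.20 SE as deposited (adjusted p = 0.569, limma, Benjamini-Hochberg) and -0.28 after scaling. Hcfc1 (ENSMUSG00000031386, chrX:73942792-73966357, minus strand), a host cell factor that links methyltransferase and other chromatin complexes to transcription factors, was at 4.22, 6.76 and 5.87 FPKM in WT and 5.45, 8.93 and 7.70 FPKM in Cfp1-cKO. Replicate 1 was the lowest and replicate 2 the highest in each genotype, and the log2 fold change was 0.33 ± 0.22 SE as deposited (adjusted p = 0.254, limma, Benjamini-Hochberg) and -0.052 after scaling.

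As deposited, therefore, 2 of the 9 genes were called higher, against 21.1% of all tested genes, and none was called lower, against 1.68%. Groups were separated upward for 5 of the 9, against 46.4% of all tested genes, and downward for none, against 3.23%. The median log2 fold change of the 9 was 0.35, equal to that of all tested genes to the second decimal, and 4 of the 9 lay above that median. After scaling none of the 9 was called, against 3.74% of tested genes called higher and 3.25% called lower, and 1 of them had an unadjusted p below 0.05, beside 2720 of the 11017 tested genes. Ash2l alone was then separated upward, against 16.7% of tested genes, and Cxxc1 alone downward, against 14.9%. The median of the 9 was -0.036 after scaling.

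**Figure D2:**
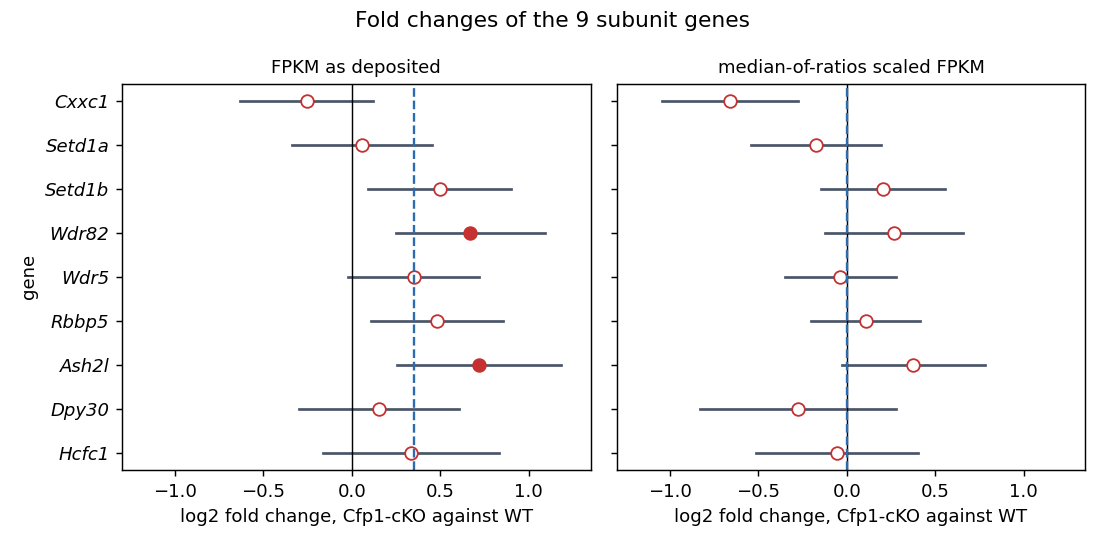
Fitted log2 fold change of each subunit gene, Cfp1-cKO against WT, with its 95% interval (bars), as deposited (left) and after median-of-ratios scaling (right). Filled points are the 2 called genes, Wdr82 and Ash2l, and the dashed line is the median of all tested genes, 0.35 on the left and 0.0043 on the right; Cxxc1 lies to the left of that line in both panels, with an interval of -1.05 to -0.27 on the right.

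The level of Cxxc1 relative to its partners was lower in every Cfp1-cKO library. On the log2 scale, Cxxc1 exceeded the mean of the other 8 genes by 1.37, 1.69 and 1.22 in WT and by 0.68, 0.70 and 0.52 in Cfp1-cKO. The groups did not overlap, and the difference of the means was -0.79, or 0.577 times the WT ratio. How many other tested genes are separated from the same reference was not counted. Set singly against Cxxc1, 67.2% of tested genes gave such a separation, so it is not particular to these partners. It was -0.80 against the core of Wdr5, Rbbp5, Ash2l and Dpy30 and -0.72 against Setd1a and Setd1b, and it ranged from -0.90 to -0.66 when a library was left out. Expressed as a share of the summed FPKM of the 9 genes, Cxxc1 took 16.2%, 20.2% and 17.3% in WT and 11.3%, 12.7% and 11.9% in Cfp1-cKO.

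Gene by gene, the ratio of Cxxc1 to its partner was lower in every Cfp1-cKO library than in any WT library for 7 of the 8 partners. The exception was Dpy30, with ratios of 0.397, 0.525 and 0.626 in WT and 0.303, 0.412 and 0.420 in Cfp1-cKO. The same was found for 67.2% of the 10878 genes that could be set against Cxxc1, so that the share among its partners is to be read against a high background. The widest difference was that to Ash2l, at 3.70, 7.85 and 3.16 in WT and 2.01, 2.17 and 1.63 in Cfp1-cKO. To Wdr82 the ratio was 1.24, 2.28 and 1.06 in WT and 0.642, 0.786 and 0.709 in Cfp1-cKO, which passed from above to below 1.

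**Figure D3:**
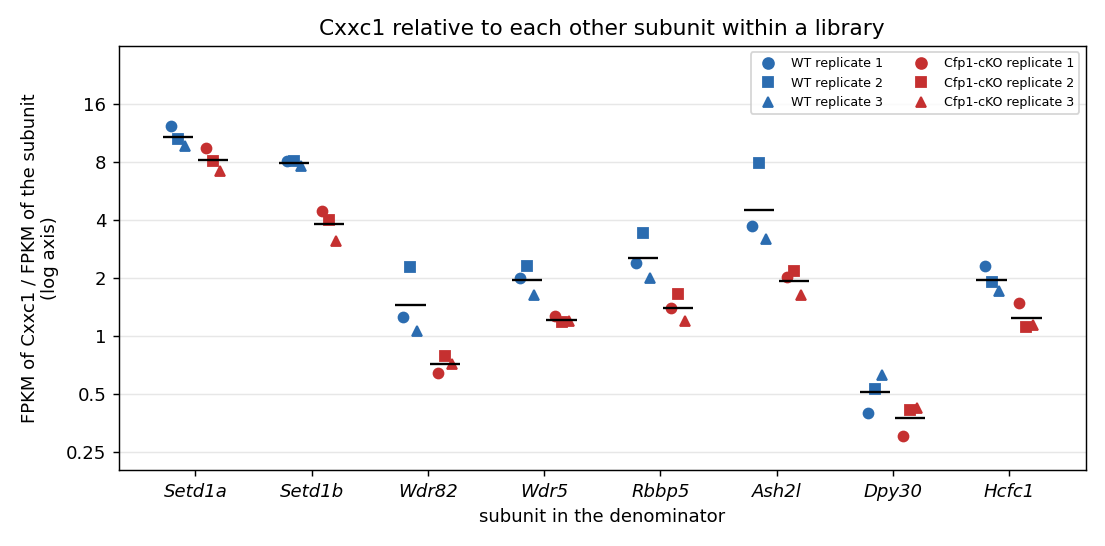
Ratio of the FPKM of Cxxc1 to that of each other subunit gene in each library on a log axis, with WT in blue, Cfp1-cKO in red and bars at the geometric means. For every partner but Dpy30 the 3 Cfp1-cKO libraries lie below the 3 WT libraries, and for Wdr82 they fall below a ratio of 1.

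The order of the levels in FPKM was otherwise stable. Dpy30 was the highest and Ash2l, Setd1b and Setd1a were the lowest of the 9 in all 6 libraries. Cxxc1 was the second in every WT library and the third, behind Wdr82, in every Cfp1-cKO library, and the ranges of these 2 genes overlapped in neither genotype. In Cfp1-cKO the range of Cxxc1, 8.02 to 9.94 FPKM, did overlap those of Hcfc1 and Wdr5, so that its place above them was not separated. Between Cxxc1 and the lowest genes, Wdr5, Hcfc1 and Rbbp5 changed places from library to library, though Rbbp5 was the lowest of these in every WT library. Their ranges overlapped in both genotypes, and in WT Wdr82 overlapped Wdr5 and Hcfc1 as well. Setd1a and Setd1b overlapped in WT, at up to 1.23 and from 1.20 FPKM, and not in Cfp1-cKO. These comparisons between genes rest on the exon lengths behind the FPKM, which ranged from 974 bases for Dpy30 to 12068 for Setd1b. The lengths were those of the gene annotation where these fitted the values. Otherwise, as for Cxxc1 and Dpy30, they were worked back from the values.

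Genes with a pattern like that of Cxxc1 were sought by the correlation of log2 scaled levels over the 6 libraries. These hold 3 libraries of each genotype, so r includes the difference between the genotypes and is given as a description. The highest Pearson's r were those of Gid4 (0.996), 1500015A07Rik (0.993) and Fam195a (0.992), and 531 tested genes had an r above 0.9. Gid4, the substrate receptor of a ubiquitin ligase, was at 7.99, 10.4 and 7.75 in WT and 6.04, 6.21 and 5.92 in Cfp1-cKO on the scaled level. Among its own partners Cxxc1 had r of 0.80 with Setd1a, 0.61 with Dpy30, 0.42 with Hcfc1, 0.40 with Wdr5, -0.36 with Setd1b, -0.71 with Rbbp5, -0.85 with Wdr82 and -0.94 with Ash2l.

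Other genes of H3K4 methylation were read from 6 lists of 56 genes, of which 54 could be tested. As deposited, 10 of the 54 were called higher and none lower, with a median log2 fold change of 0.28 beside 0.35 for all tested genes and the background of 21.1% called higher. After scaling none was called and the median was -0.062. Kdm5c, an H3K4 demethylase that escapes X inactivation, had the largest change of the 54. It was at 3.33, 3.82 and 4.15 FPKM in WT and 8.81, 10.6 and 6.82 FPKM in Cfp1-cKO, with no overlap and a log2 fold change of 1.02 ± 0.18 SE (adjusted p = 0.0110, limma, Benjamini-Hochberg). After scaling its log2 fold change was 0.64 (adjusted p = 0.0753, limma, Benjamini-Hochberg).

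List by list, the counts are as deposited and stand beside the 21.1% of all tested genes called higher. After scaling no gene of any list was called. Among the 9 tested genes of the Mll methyltransferases and their own subunits, 1 was called higher. It was Kmt2a, the founding Mll enzyme, at a log2 fold change of 0.59 (adjusted p = 0.0426, limma). Of 11 genes of H2B ubiquitination and the Paf1 complex, on which H3K4 methylation depends, 3 were called higher. They were the Paf1 complex subunits Leo1 (0.76), Ctr9 (0.58) and Paf1 (0.52). Of 9 tested readers of H3K4me3, Bptf, a subunit of the NURF remodeller, rose by a log2 fold change of 0.55. Of 5 demethylases Kdm5c was the only one called.

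Wdr82, Wdr5 and Hcfc1 also work in other complexes. Of 12 genes of these, 2 were called higher as deposited, beside 21.1% of all tested genes. Ppp1r10, which joins Wdr82 in a phosphatase complex, rose by 0.64, and Ogt, the glycosyltransferase that acts on Hcfc1, rose by 0.53. Of 8 further reported partners of Cfp1 or Setd1, Polr2a, the largest subunit of RNA polymerase II, rose by 0.90 and Hdac1, a histone deacetylase, by 0.79. Their adjusted p-values as deposited lay between 0.0158 and 0.0455 together with those of Kmt2a, the Paf1 complex genes and Bptf (limma, Benjamini-Hochberg), and after scaling the nearest to the threshold among them was Polr2a (0.52, adjusted p = 0.0989). The sex of the mice, on which the level of Kdm5c can depend, is not given, and its part was not tested.

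**Figure D4:**
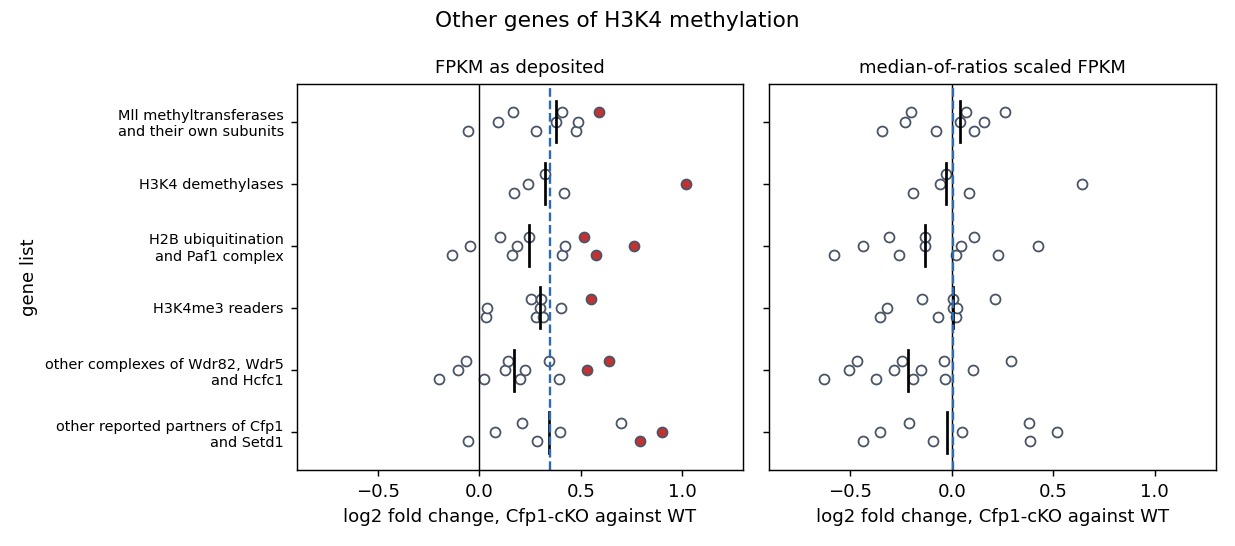
Log2 fold change, Cfp1-cKO against WT, of each tested gene in 6 lists of H3K4 methylation, as deposited (left) and after median-of-ratios scaling (right); filled points are called genes, black bars are list medians and the dashed line is the median of all tested genes. The 10 filled points at the left, led by Kdm5c at 1.02, have no counterpart at the right, where Kdm5c lies at 0.64.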

How the data were processed

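The authors deposited FPKM per gene for 3 WT and 3 Cfp1-cKO libraries, in an annotated and a plain table that were identical for all 26881 genes. Bowtie2, TopHat and DESeq are named in the paper, with the address of a chicken genome, and the submitters' processing notes list CASAVA, TopHat2, Bowtie2 2.2.3, DESeq2, HTSeq 0.6.0, HISAT2 2.1.0 and the build GRCm38. The roles of these tools are not given in the sources used here. The extraction text of the labels speaks of retinas, which could not be reconciled with the label heart.

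Whole fragments were recovered from the FPKM steps within 0.02 of a whole number for 26879 genes, of which 23964 used exon lengths of GENCODE mouse release 21. For the others, Cxxc1 and Dpy30 among them, the shortest length giving whole fragments in all 6 libraries was taken. Totals were 16672652 to 22700811 fragments. Counting was not stated to use strand, and the let-7g gene inside Wdr82 and an antisense gene at Setd1a were below 0.1 FPKM. Replicates differed beyond sampling noise in every pair, at a chi-square per degree of freedom of 34.2 to 87.4.

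Genotypes were compared by limma 3.58.1 with a variance trend (R 4.3.3) on log2(FPKM + 1). The 11017 genes averaging 1 FPKM or more entered, with Benjamini-Hochberg adjustment over all of them. A call needed an adjusted p under 0.05 and a log2 fold change beyond 0.5 either way. Fold changes on this scale understate those of low genes. The scaled fit divided FPKM by median-of-ratios factors of 0.821 to 0.912 in WT and 1.07 to 1.23 in Cfp1-cKO. Their reference was restricted to tested genes after the data had been seen, and the planned reference over all genes above 0 is given beside it. All 9 subunits were named, with every called gene of each list up to 3 by size and the 3 genes closest to Cxxc1. The rule for the members uses no values, but members and lists were chosen with earlier results of these data known. The replicate numbers were not taken to pair the libraries, since same-numbered libraries deviated together at correlations of 0.108, 0.036 and 0.104.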

Additional observations from a re-analysis of the deposited data

How the results depend on the processing

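The call of 2510 genes, 92.6% of them higher, became 770 (53.5% higher) after median-of-ratios scaling and 800 (44.4% higher) with the scaling reference over all genes above 0. It was 1461 without mitochondrially encoded and haemoglobin genes and 1609 with no filter on low values. It was 588 to 2789 when a library was left out, with 680 without WT replicate 1, 588 without Cfp1-cKO replicate 2 and 1086 without Cfp1-cKO replicate 3, and 216 to 998 when a library was left out of either scaled fit. The 2 subunits called became 0 after scaling, without mitochondrially encoded and haemoglobin genes and with no filter, and 1, Cxxc1, with the reference over all genes. They were 0 to 3 when a library was left out. The 10 called genes of the H3K4 lists became 0 under both scalings and 3 without mitochondrially encoded and haemoglobin genes or with no filter, and 0 to 9 when a library was left out, with the lowest count as deposited, 1, without Cfp1-cKO replicate 2.

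With the replicate number as a block, 1749 genes were called, Ash2l was the 1 subunit called (adjusted p = 0.0499, limma) and Wdr82 missed (adjusted p = 0.0548). With the block and scaling, 429 genes were called, or 491 with the reference over all genes, with 0 subunits and 0 list genes. Each library correlated best with its own number, which is a hint from the data and not the design.

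Cxxc1 was lower under all 27 alternatives, at -0.86 to -0.14, and passed with the reference over all genes (-0.75) and, with that reference, without WT replicate 3 (-0.86). Directions turned for 5 subunits that did not pass. After scaling, with and without the block, Setd1a was at -0.17, Wdr5 at -0.036, Dpy30 at -0.28 and Hcfc1 at -0.052. With the reference over all genes they were at -0.23, -0.12, -0.37 and -0.14. Setd1a was at -0.013 without mitochondrially encoded and haemoglobin genes. Over the fits that left out a library, Setd1a ranged from -0.32 to 0.15, Wdr5 from -0.20 to 0.44, Dpy30 from -0.63 to 0.25, Hcfc1 from -0.30 to 0.51 and Rbbp5 from -0.028 to 0.58. The cause was not tested. Wdr82 kept its call in 3 and Ash2l in 4 of 27 alternatives, both with a pseudocount of 0.1, with voom on recovered fragments and without WT replicate 3. Setd1b also passed with voom (0.77, adjusted p = 0.0396). With 3 libraries a group the 95% intervals stayed wide, such as -0.83 to 0.28 for Dpy30 after scaling, and smaller differences were not detectable.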

Other observations

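The gene annotation deposited with the table assigns 11 genes to the Set1C/COMPASS complex, the 9 subunits and Dydc1 and Dydc2, which hold a Dpy30 domain. Dydc1 and Dydc2 were listed at 0 in every WT library and reached at most 0.0558 and 0.0938 FPKM in Cfp1-cKO. The summed level of the 9 subunits was 59.5, 63.8 and 58.1 FPKM in WT and 71.2, 78.5 and 73.5 FPKM in Cfp1-cKO. After scaling, the sums were 69.7, 77.7 and 63.7 in WT and 66.7, 64.1 and 59.6 in Cfp1-cKO, which overlapped.

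Within WT, replicate 2 was the highest library for Cxxc1, Setd1a, Setd1b, Dpy30 and Hcfc1 and the lowest for Wdr82, Rbbp5 and Ash2l. Transcripts of Cxxc1, Setd1a and Setd1b held 58.4%, 58.2% and 58.1% GC, those of Hcfc1, Wdr5 and Dpy30 held 53.6%, 50.6% and 49.8%, and those of Rbbp5, Ash2l and Wdr82 held 48.4%, 48.2% and 48.1%. For Dpy30, WT replicates 1 and 2 lay close together, at 24.3 and 24.6 FPKM. Over 10290 tested genes the deviations of WT replicate 2 from its group mean had a Spearman's rho of -0.049 with GC content, and those of all 6 libraries ranged from -0.070 to 0.11. The difference between Cfp1-cKO and WT had a rho of 0.15 with GC over the same genes, which are not independent replicates. The part of GC content in the differences of the subunits was not tested.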
